A study of Homo sapiens with 9 samples.

Results

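The genes described are BCR on chromosome 22, ABL1 on chromosome 9, and FIBCD1, LAMC3, AIF1L and NUP214, which follow ABL1 along 9q34. SF3B1 binding sites were taken from the deposited list when the site's centre lay in the GRCh38 RefSeq span of one of these genes and on its strand. This gave 296 of the 96852 sites, in 3 of the 6 genes. The sites come from K562, an established human leukaemia line. The study used iCLIP, which locates the nucleotides that ultraviolet light crosslinks to an immunoprecipitated protein. SF3B1 was immunoprecipitated with 1 monoclonal antibody from 3 cultures whose genotype is SF3B1 wt/wt and from 2 cultures whose genotype is SF3B1 K700E/wt, all UV crosslinked and obtained from Horizon Discovery as separate products. U2AF2 was immunoprecipitated from 4 SF3B1 wt/wt cultures supplied by ATCC. The labels attach the list to the 3 SF3B1 wt/wt cultures, while its header names reproducibility in either condition. Whether the K700E/wt line is 1 clone is not given in the sources used here. The labels give the tissue as a chronic lymphoid leukaemia, whereas K562 is known as a chronic myeloid leukaemia line.

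BCR encodes a protein with kinase and GTPase-regulating domains, and ABL1 encodes a non-receptor tyrosine kinase. In chronic myeloid leukaemia a translocation joins the start of BCR to the end of ABL1, and the fusion protein signals as a kinase without its normal restraint. K562 is known to carry extra copies of this fusion gene together with the 9q34 stretch up to NUP214, which encodes a nucleoporin of the cytoplasmic face of the nuclear pore. It is also known to join the start of NUP214 to the end of XKR3, a gene of the XK-related membrane protein family on chromosome 22. SF3B1 belongs to the U2 snRNP, which binds introns near the branch point, and its sites lie largely in pre-mRNA.

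The list is a single merged set of positions with a score of 0 in each row. It holds no value per culture and no read number, so the depth is unknown, no spread between cultures can be given and no test was made. More copies of a gene, more RNA per copy and more binding per RNA cannot be told apart from site positions. The comparisons below set each gene beside all other protein-coding genes of the same list. Of the fixed marker genes, sites lay in 2 of the 5 erythroid genes reported, with 121 in TFRC, the transferrin receptor, and 6 in GATA1, an erythroid transcription factor. HBG1, HBG2 and KLF1 had 0. Among the 3 markers of other cell types reported, PTPRC, which encodes the leukocyte antigen CD45, had 28 sites, and CD3E and ALB had 0. The shares of 40.0% and 33.3% were near the 37.9% of all protein-coding genes with a site, and nothing about cell type is read from them.

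Distances along a gene are measured from its start, and the sequence before that start is shown for the 4 genes of the fusions because a fusion puts the end of one gene behind the start of the other. Each sequence holds the 250 bases before a RefSeq start in GRCh38.p14, written 5′ to 3′ on the strand of the gene, with GGGCGG or its reverse complement CCGCCC in capitals. BCR lies on the plus strand at chr22:23180259-23180508, ABL1 on the plus strand at chr9:130835004-130835253, NUP214 on the plus strand at chr9:131125336-131125585 and XKR3 on the minus strand at chr22:16825412-16825661.
BCR: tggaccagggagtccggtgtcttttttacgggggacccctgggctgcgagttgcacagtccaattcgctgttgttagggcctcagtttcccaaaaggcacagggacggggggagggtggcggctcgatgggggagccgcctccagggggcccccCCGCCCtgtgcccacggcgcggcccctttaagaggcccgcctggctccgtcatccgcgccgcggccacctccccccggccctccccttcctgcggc
ABL1: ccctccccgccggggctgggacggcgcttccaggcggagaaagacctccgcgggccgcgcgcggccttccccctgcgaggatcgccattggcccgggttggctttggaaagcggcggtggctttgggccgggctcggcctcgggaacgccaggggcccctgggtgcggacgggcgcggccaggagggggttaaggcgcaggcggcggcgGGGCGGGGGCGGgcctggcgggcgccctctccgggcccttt
NUP214: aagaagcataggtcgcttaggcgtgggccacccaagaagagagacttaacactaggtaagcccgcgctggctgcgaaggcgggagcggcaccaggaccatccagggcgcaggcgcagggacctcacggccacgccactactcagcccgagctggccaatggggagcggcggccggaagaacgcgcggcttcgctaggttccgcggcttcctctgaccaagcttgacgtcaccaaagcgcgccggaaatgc
XKR3: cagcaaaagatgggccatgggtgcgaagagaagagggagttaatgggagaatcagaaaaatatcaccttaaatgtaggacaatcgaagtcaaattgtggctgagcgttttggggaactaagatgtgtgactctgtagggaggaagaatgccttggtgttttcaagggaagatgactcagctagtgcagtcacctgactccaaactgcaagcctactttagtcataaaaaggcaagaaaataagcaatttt

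The BCR sequence held 1 match to GGGCGG on either strand, the ABL1 sequence 2 and the NUP214 and XKR3 sequences 0. A match was present in 42.6% of the 35116 RefSeq windows of this length. TATAAA, searched on both strands, was in none of the 4 and in 10.7% of all windows. CG dinucleotides numbered 20 in BCR, 33 in ABL1, 25 in NUP214 and 3 in XKR3, against a median of 11 over all windows. The BCR, ABL1 and NUP214 sequences thus lay above that median and the XKR3 sequence below it. The XKR3 sequence stands before that gene's own start, in the part the fusion leaves out. No SF3B1 site fell in the ABL1 or NUP214 sequence. The BCR and XKR3 sequences lie outside the gene spans, where sites were not counted for these genes, so nothing is said of them. The ABL1 sequence belongs to the proximal start, 122.2 kb inside the gene span, while the span itself begins at the distal start.

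NUP214 had 247 sites, ABL1 25 and BCR 24. All lay on the plus strand, which is that of the 3 genes, and none on the other strand or in a second protein-coding gene on the same strand. FIBCD1, LAMC3 and AIF1L had 0 sites on either strand. FIBCD1 encodes a receptor with a fibrinogen-like domain, LAMC3 a laminin gamma chain of basement membranes and AIF1L an actin-binding protein. At least 1 site was present in 37.9% of the 20056 protein-coding genes, so a gene without a site was the more common case.

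NUP214 ranked 2nd of the 7608 genes with a site by number and 241st by sites per kb, with 2.26. BCR had 0.175 sites per kb and ABL1 0.143, below the median of 0.199 over genes with a site. By number, BCR exceeded 84.8% of genes with a site and ABL1 86.0%. The 2 genes of the kinase fusion therefore had many sites for a gene, but fewer than the median gene relative to their lengths of 137.5 and 174.6 kb. Among genes of at least 50 kb, 68.96% had fewer sites per kb than BCR and 64.06% fewer than ABL1. Over all genes with a site, these shares were 46.4% for BCR and 41.3% for ABL1. Restricting that ranking to genes with at least 10 sites lowered them to 18.04% and 13.93%.

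The sites of each fused gene were compared on either side of the exon boundary used in its K562 fusion transcript: the end of BCR exon 14, the start of ABL1 exon 2, the end of NUP214 exon 29 and the start of the XKR3 exon joined to it. The positions of these 4 exon boundaries are from general knowledge of the K562 fusions in GRCh38, since the gene table used here has no exons. The breaks in the DNA lie in the adjoining introns and were not located. A site in such an intron may thus lie on either side of the break. The split is by exon boundary and does not say which intron sites the fusion keeps. For comparison, all other protein-coding genes with at least 5 sites were cut at the same relative position, leaving out the 4 fusion genes. Shares of sites carry exact 95% binomial intervals, which cover counting error only and treat sites as independent, although neighbouring sites are not.

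In BCR all 24 sites lay before the boundary and 0 after it (100% before, interval 85.8% to 100%). The first was centred at position 23203313, 22.8 kb from the gene start, and the last at 23290296. The 20.1% of the gene behind the boundary, 27.6 kb, held no site, and the next site on either strand lay 101 kb beyond the last BCR site, at 23391770 in the pseudogene ZDHHC8BP. Sites stopped close to the boundary, with 9 in the 10 kb before it and 4 in the last 1 kb. They were not spread evenly before it either: 2 lay at 23203313 and 23203346, then 50.4 kb held none, and 20 of the 24 fell between 60% and 80% of the gene span.

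A stretch without sites behind this relative position was not particular to BCR. Of 4626 other genes cut at 79.9% of their span, 24.2% had no site behind the cut, and the median gene had 80.0% of its sites before it (quartiles 57.1% and 96.3%). Among the 1441 genes with at least 20 sites, which is closer to the number in BCR, 10.9% had none behind it. Moving the cut 5 kb upstream left 5 BCR sites behind it and 79.2% before it. An end without sites was thus less common among genes with at least 20 sites, and it was found in 157 of them. A larger number of sites by itself makes an empty end rarer, and this set has no upper limit on sites.

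In ABL1 8 sites lay before exon 2 and 17 after its start (32.0% before, interval 14.9% to 53.5%). The 8 were centred at 130731768, 130731809, 130780309, 130781745, 130781786, 130853981, 130854032 and 130854039. The last 3 lay within 1 kb of exon 2, on the side where its 3′ splice site is. The other 5 lay in front of the proximal start at 130835254 and 18.7 kb or more behind the start of the gene span, in the long first intron of the distal transcript. The first 18.7 kb of the gene, which contain the distal start, held 0 sites. Thus 20 sites lay behind the proximal start and 5 in front of it, and a 72.2 kb stretch from 130781786 to 130853981, which includes that start, held none.

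The 17 ABL1 sites after the boundary lay between 130872075 and 130880476, all in the last 10% of the gene span. Sites per kb were 0.0567 before the boundary and 0.506 after it, a ratio of 0.112. Of the 4626 other genes cut at 80.8% of their span, 9.53% had as small a share of sites before the cut, among the 1441 with at least 20 sites 6.80% did, and among the 1991 of at least 50 kb 14.5% did. The last 10% of the gene held 68.0% of the ABL1 sites, a share reached in 2.57% of genes with at least 5 sites and in 1.11% of those with at least 20. The median of those 2 sets of genes was 5.61% and 8.57%. ABL1 thus had a larger share of its sites near the gene end than most genes, in the part that is joined to BCR in K562. Since the break was not located, sites in front of the boundary may also lie in the joined part. Genes were compared by span alone, without regard to where their exons and introns lie.

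**Figure D1:**
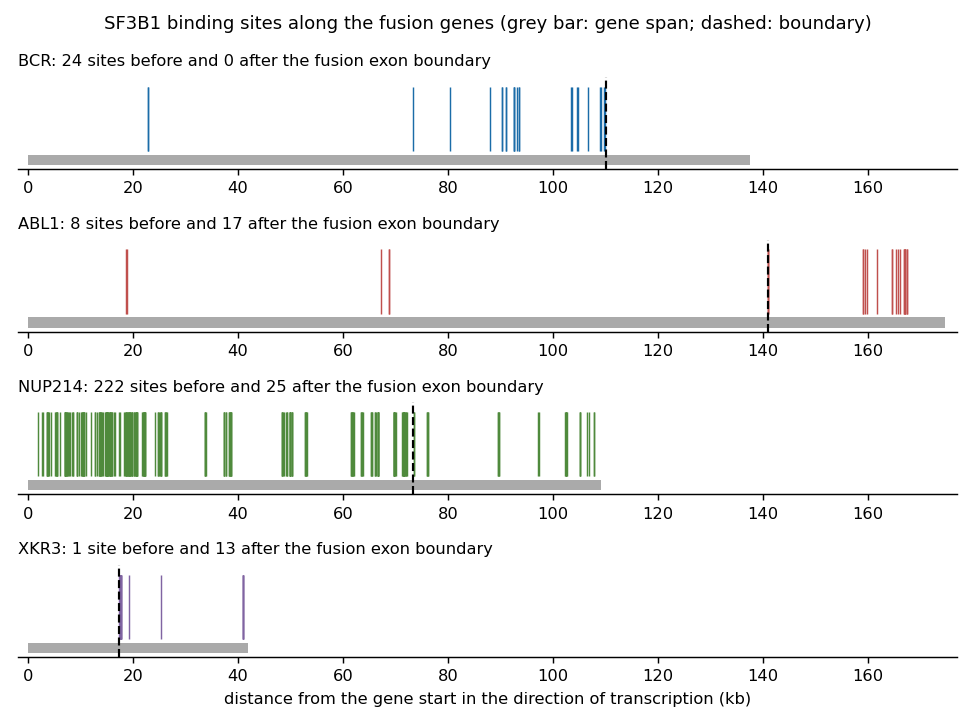
Each vertical line is 1 SF3B1 binding site at its distance from the gene start (x axis, kb, in the direction of transcription) in BCR, ABL1, NUP214 and XKR3. Grey bars show the gene span and dashed lines the fusion exon boundary. BCR has 24 sites before its boundary and 0 after it, ABL1 has 17 after it in the last 10% of the gene, NUP214 has 222 before and 25 after, and XKR3 has 1 before and 13 after.

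In NUP214 222 sites lay before the boundary and 25 after it (89.9% before, interval 85.4% to 93.3%). The part before it, 73.4 kb, had 3.02 sites per kb, and the part after it, 35.6 kb, had 0.701. The ratio was 4.31. The last site in front of the boundary was at 131197809, and the first ones behind it were at 131199035 and 131199046, within 1 kb. Within 10 kb on either side there were 38 sites before and 6 after, while within 1 kb there were 0 before and 2 after. NUP214 sites were thus sparser behind the boundary over the whole gene and over 10 kb, but not over 1 kb.

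The lower density behind the boundary was again seen in a minority of other genes. Cut at 67.3% of their span, 16.8% of the 4626 genes had a share before the cut as high as NUP214, and 11.5% of the 1441 with at least 20 sites did. The median gene had 58.3% of its sites before this cut (quartiles 33.3% and 81.5%). With the cut moved 5 kb upstream, 46 sites lay behind it and 81.4% before it.

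NUP214 also differed from most genes at its start. Divided into 10 sections of equal length, the first 2 held 45 and 68 sites, which is 45.7% of the total, and the following 5 held from 15 to 38. The last 3 held 0, 6 and 13. Averaged over genes with at least 5 sites, the first 2 sections held 4.99% and 5.86% of sites and the last 13.8%. A share as high as that of NUP214 in the first 20% of the gene was reached in 6.94% of genes with at least 5 sites and in 4.44% of those with at least 20. The planned section was the first 10%, which held 18.2% of the NUP214 sites. The first 20% covers the 2 fullest sections of NUP214, so its rarity in other genes is a description and no test. In windows of 5 kb the number rose from 10 at the gene start to 36 between 15 and 20 kb, and windows without a site occurred before the boundary, from 40 to 45 kb and from 55 to 60 kb, as well as after it, from 80 to 85 kb and from 90 to 95 kb.

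RefSeq lists a second NUP214 start at 131190139, 64.55 kb into the gene and in front of the boundary. Of the 247 sites, 188 lay before it and 59 after it.

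**Figure D2:**
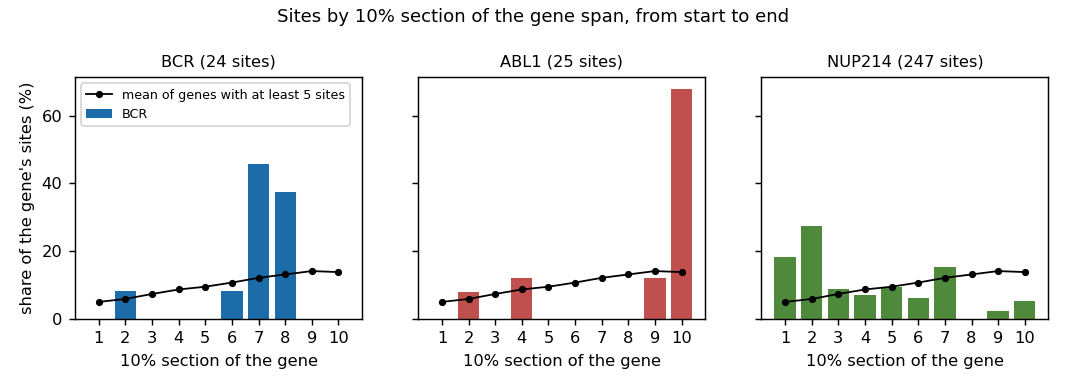
Bars give the share of the sites of BCR, ABL1 and NUP214 (y axis, %) in each of 10 equal sections of the gene span from start to end (x axis), and black points the mean share over genes with at least 5 sites. BCR is empty in its last 2 sections, ABL1 has 68.0% in the last, and NUP214 has 45.7% in the first 2.

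XKR3, the partner of NUP214, had 14 sites on its own strand, the minus strand. The first in the direction of transcription was at 16808134, 17.3 kb from the gene start, so the first 41.2% of the gene held none. This site lay within 1 kb in front of the boundary, 7 lay within 1 kb behind it, between 16807927 and 16807715, and the other 6 were at 16806240, 16800080 and, as a group of 4, from 16784456 to 16784396. The share before the boundary was 7.14% (interval 0.181% to 33.9%), against a median of 20% in other genes cut at 41.3% of their span. In 33.7% of those genes the share was as low, so this arrangement was common. Both RefSeq starts of XKR3 lay in front of all 14 sites.

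**Figure D3:**
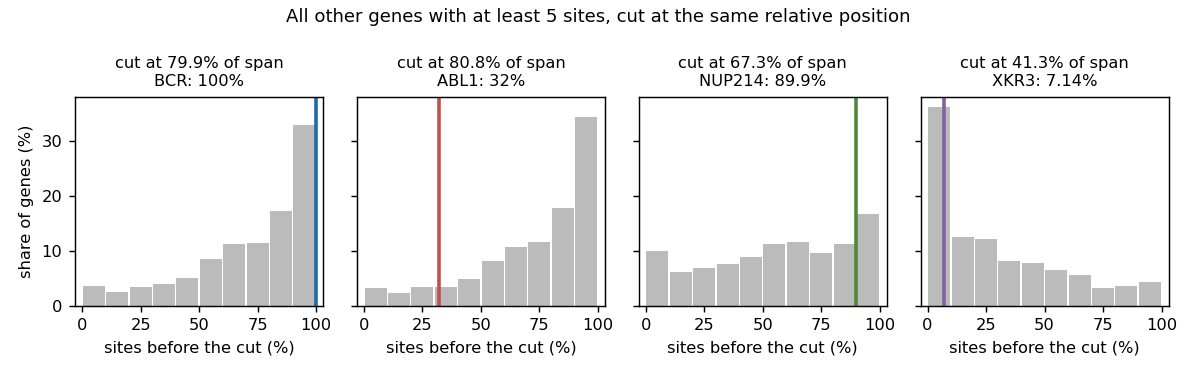
Grey bars show how the 4626 other protein-coding genes with at least 5 sites divide by the share of their sites before a cut (x axis, %) at the same relative position as the fusion boundary, as a share of genes (y axis, %). The coloured line marks the fusion gene, at 100% for BCR, 32.0% for ABL1, 89.9% for NUP214 and 7.14% for XKR3.

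Close spacing of sites was examined because pairs 25 to 45 nt apart are frequent in the whole list. BCR had 2 such pairs, 33 and 37 nt apart. ABL1 had 4, of which 2 were 41 nt apart, at 130731768 and 130731809 and at 130781745 and 130781786, and 2 were 38 nt apart, at 130872075 and 130872113 and at 130880017 and 130880055. NUP214 had 48 pairs with a median distance of 36.5 nt, against 30 pairs 46 to 66 nt apart, and XKR3 had 5 in either span. At 46 to 66 nt ABL1 had 2 pairs and BCR 0. The first 2 close pairs of ABL1 lie deep in its first intron, far in front of exon 2, and the other 2 lie behind it. Since only pairs 25 to 45 nt apart were taken, their like spacing is partly set by that choice.

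A site had a partner 25 to 45 nt away for 16.7% of the sites of BCR, 32.0% of those of ABL1 and 30.4% of those of NUP214. The median over the 1444 genes with at least 20 sites was 38.9%. When sites no more than 60 nt apart were joined, BCR had 19 clusters, of which 14 were single sites, ABL1 had 17 and NUP214 had 141, where the largest held 6 sites. The median distance between neighbours was 482 nt in BCR, 310 nt in ABL1 and 93.0 nt in NUP214, against a median of 146 nt over the same genes.

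The 3 genes with a density most like that of NUP214 were sought among the 37 genes with at least 100 sites, by the absolute difference in sites per kb over the merged list. These were DHX9, an RNA helicase gene on chromosome 1, with 111 sites and 2.28 per kb, XPO1, the gene of a nuclear export receptor on chromosome 2, with 136 and 2.24 per kb, and IARS1, the gene of the cytosolic isoleucyl-tRNA synthetase on chromosome 9, with 183 and 2.19 per kb. Cut at the relative position of the NUP214 boundary, DHX9 had 64.9% of its sites before the cut and XPO1 61.0%, both less than NUP214, while IARS1 had 94.5%. A high share of sites in front of this cut was thus also found in a gene of like density.

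The stretch between the end of ABL1 and the start of NUP214, 238 kb from 130887676 to 131125585, held 0 sites on both strands. It contains 7 annotated genes lying wholly within it, of which 4 are protein-coding: QRFP, which encodes a neuropeptide precursor, FIBCD1, LAMC3 and AIF1L. From the last ABL1 site at 130880476 to the first NUP214 site at 131127465 the distance was 247 kb. Of the 3714 distances between neighbouring sites of chromosome 9, taken on either strand, 85 were at least as long. Stretches of this length without sites thus also occurred elsewhere on the chromosome, as a small minority of the distances. The count does not separate stretches with genes from those without.

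Outside the stretch, sites were found in 5 of the 9 other listed neighbours on 9q34, against 37.9% of all protein-coding genes. No difference is read from so short a list. Before ABL1, FUBP3, which encodes a single-strand nucleic acid binding protein, had 48 sites (0.817 per kb) and EXOSC2, an exosome subunit gene, had 6 (0.539 per kb), while ASS1 and PRDM12 had 0. After NUP214, PRRC2B had 105 sites (0.830 per kb), the protein O-mannosyltransferase gene POMT1 9 and the uridine-cytidine kinase gene UCK1 2, while FAM78A and PLPP7 had 0. NUP214 had more sites and more per kb than each listed neighbour. Genes with many sites and genes with none stood side by side both inside and outside the stretch known to be amplified.

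**Figure D4:**
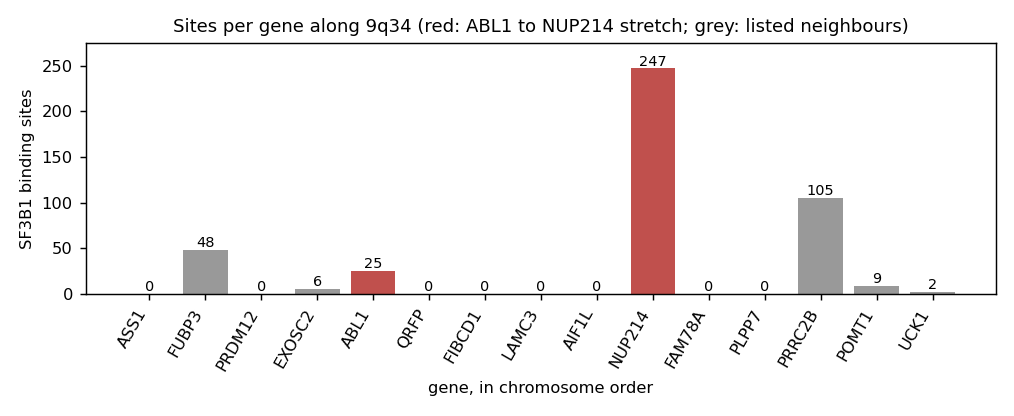
Bars give the number of SF3B1 binding sites (y axis) in ABL1, FIBCD1, LAMC3, AIF1L and NUP214 (red) and in the 10 listed neighbours on 9q34 (grey), in chromosome order (x axis). NUP214 has 247 sites, PRRC2B 105 and FUBP3 48, and the 4 genes between ABL1 and NUP214 have 0.

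Around BCR the listed neighbours RAB36, GNAZ, RSPH14, IGLL1 and DRICH1 had 0 sites. In the 1 Mb before BCR 3 of 9 protein-coding genes had a site, with 36 in PRAME, a gene of a tumour antigen. In the 1 Mb after BCR 2 of 21 had one, CABIN1 with 12 and SMARCB1 with 4, which is 9.52% of genes against 37.9% over the whole list. The 1 Mb before ABL1 gave 6 of 14 genes and the 1 Mb after NUP214 5 of 9. BCR thus had the only sites in protein-coding genes between PRAME and SMARCB1.

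Of 16 listed genes for proteins that bind the fusion kinase or carry its signal, 15 had a site, against 37.9% of all protein-coding genes. The 15 had a median of 8 sites, against 7 among all genes with a site. STAT5B had 45 sites, and STAT5A and JAK2 had 39 each. STAT5A and STAT5B encode transcription factors activated by the fusion kinase and JAK2 a cytokine receptor kinase. RIN1, which encodes a protein that binds ABL kinases, was the listed gene with 0 sites. ABL2, the relative of ABL1, had 8 sites at 0.0614 per kb, fewer than ABL1 on both scales. Expression was not measured here, and its part in these counts was not tested.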

How the data were processed

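The samples were grouped by their titles. The authors deposited 1 BED list of sites, per the labels for the 3 SF3B1 wt/wt samples. The other 6 samples had no table and were not analysed here. Per the file headers, the sites were merged to a width of 5 nt and kept when reproducible by all replicates of either condition, which can leave out sites in rare RNA. The deposited score was 0 in each row, and the deposited columns of start, end and running number are positions and names, not levels. The submitters' processing notes name FastQC 0.11.8, STAR 2.7.3a and 2.6.1b, UMI-tools 1.0.0, bedtools 2.27.1 and the builds GRCh38.p10 and GRCh38.p12, with no role or order. The site caller is not given in the sources used here. Centres were computed as 1-based positions and assigned to RefSeq gene spans of GRCh38.p14. The strand of a gene came from the RefSeq promoter table for 15843 of 20056 genes and from the majority of its sites for 1222. The rest had no majority strand, as for LAMC3 and AIF1L, and were counted as having 0 sites. Genes given a strand by their sites have at least 1 site by construction. The 37.9% of protein-coding genes with a site depends in part on this rule.

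The named genes are the 6 members, listed neighbours with a site, the 3 listed signalling genes with most sites and those with none, and the 3 genes nearest NUP214 in density. ABL2, the neighbours without sites, PRAME, CABIN1, SMARCB1 and ZDHHC8BP were added after their values were seen. Some listed marker genes are not reported here. The members, lists and comparisons were chosen with earlier results of these data known. Gene assignment and cut shares were tested on simulated data. Python 3.11.15, NumPy 2.4.6, pandas 2.3.3, SciPy 1.17.1 and matplotlib 3.10.9 were used.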

Additional observations from a re-analysis of the deposited data

How the results depend on the processing

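Of 117 recalculations of 30 values, 98 stayed within the limits set and 19 moved. The limits were 1.5 times for counts and the 95% interval of the main value for others. Merging touching sites, taking 1 site per running number, using the 5′ end of a site and counting both strands moved no count, density or share in the 6 genes beyond these limits. A cut 5 kb upstream put 5 BCR sites behind it (79.2% before), left 5 ABL1 sites before it and put 46 NUP214 sites behind it (81.4% before), because sites lie in those 5 kb. A cut 5 kb downstream moved none of these beyond the limits.

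The other changes follow from which genes are ranked. The share of genes with fewer sites per kb was 68.96%, 64.06% and 99.97% for BCR, ABL1 and NUP214 among genes of at least 50 kb, and 18.04%, 13.93% and 93.46% among genes with at least 10 sites. The share of genes as far out in the sites before the cut was 10.9%, 6.80% and 11.5% with at least 20 sites, and 17.0%, 14.5% and 13.4% in genes of at least 50 kb. The comparison of gene ends in genes with at least 20 sites, added after seeing the data, gave 4.44% for NUP214 and 1.11% for ABL1. The first 20% used for NUP214 is also wider than the planned first 10%. Leaving out single cultures could not be done. No paired analysis was possible because positions are merged over cultures. A count of 0 may also come from RNA too rare to give a reproducible site.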
